A study of Danio rerio with 12 samples.

Results

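The visual cycle and transport genes of the retinal pigment epithelium (RPE), the pigmented cell layer behind the photoreceptors, were followed through RNA-seq libraries of macrophages and microglia sorted from zebrafish larval eyes. They were rpe65a, rpe65b, rlbp1b, rgra, rdh5, dhrs3b, stra6, rbp4l, slc16a8 and best1, picked by symbol for their place in the visual cycle or in RPE transport, and all 10 were found among the 25281 genes measured. In the ablated groups larvae received 10 mM metronidazole (MTZ+) for 24 h, between 5 and 6 days post-fertilisation, to destroy the RPE genetically. In the unablated groups (MTZ-) no drug was given, so the drug and the loss of the RPE cannot be told apart. Sorts were made 2 days and 4 days post-injury (dpi), and each condition and time has 3 libraries, 12 in all. The titles of 2 of the 2 dpi libraries give an age of 7 days post-fertilisation. All larvae, ablated and unablated, had been kept in 1.5X phenylthiourea, which blocks melanin synthesis, between 0.25 and 5 days post-fertilisation. Each library came from at most 1000 mCherry-positive cells of dissociated eyes. The labels name neither the transgene that makes RPE cells sensitive to the drug nor the one that carries mCherry. In the published line of this kind, as background, nitroreductase is driven by an rpe65a enhancer and converts metronidazole into a toxin, so the gene whose enhancer marks the ablated cells is itself one of the 10.

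The visual cycle rebuilds the light-sensitive chromophore 11-cis-retinal after light has turned it into the all-trans form. Photoreceptors reduce all-trans-retinal to retinol, RPE cells esterify and isomerise it, oxidise the 11-cis product and return it on binding proteins. RPE cells also take up retinol from the blood, carry lactate away from the retina and hold ion channels in their basal membrane. Their RNA was measured here in sorts for macrophages, which are cells of another type.

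Depth was 19791633 to 38935355 counts per library, with 16299 to 19601 genes detected. All 24 macrophage markers had counts in every library, summing to 27897 to 62390 CPM (counts scaled for depth) in ablated and 28893 to 73719 CPM in unablated libraries. Of that sum 52.9% was apoeb, so the sum says little of the other markers, whose calls are given below. Titles carry dates: at 2 dpi there are 3, each shared by the ablated and the unablated library of 1 replicate number, and at 4 dpi there is 1. What step a date refers to is unknown. Nothing in the labels says whether replicates came from separate pools of larvae, so the spread behind each p-value is that between these libraries and may be technical. In bulk libraries, fewer cells of a type and less RNA per cell cannot be told apart.

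Of the RPE genes, rpe65a, the isomerase, and rlbp1b, the 11-cis-retinal carrier, were lower in the sorts of ablated eyes than in those of unablated eyes at 4 dpi and averaged over both times, while none of the 10 passed the edgeR test at 2 dpi. The 4 dpi calls were not stable: rpe65a kept its call in 0 and rlbp1b in 1 of 6 omissions of a library. Over both times rpe65a kept its call in 12 of 12 omissions and rlbp1b in 4. The sum over all 10 genes, in which rbp4l had the most counts over the 12 libraries, overlapped between the conditions: 3134, 447 and 1.77 CPM in ablated and 7861, 7810 and 12.7 CPM in unablated libraries at 2 dpi, and 11.5, 2983 and 2.68 CPM in ablated and 711, 39.0 and 1074 CPM in unablated libraries at 4 dpi. Summed over the 9 genes other than rbp4l, RNA came to 11.3, 1.31 and 1.44 CPM in the ablated and to 95.1, 1656 and 12.7 CPM in the unablated libraries at 2 dpi. At 4 dpi the sums were 4.31, 17.7 and 1.80 CPM in the ablated and 64.0, 22.2 and 49.7 CPM in the unablated libraries. These sums, without rbp4l, did not overlap within either time, and they were spread most widely among the unablated 2 dpi libraries. The nearest libraries were at 11.3 and 12.7 CPM at 2 dpi and at 17.7 and 22.2 CPM at 4 dpi. Across the times the sums overlapped, with 17.7 CPM in an ablated and 12.7 CPM in an unablated library. How often sums of other genes are apart was not computed. Averaged over both times, 9 of the 10 genes had enough counts to be tested (edgeR quasi-likelihood test, adjusted p under 0.05) and 2 of them fell in ablated eyes, rpe65a and rlbp1b, or 22.2% of those tested. Among all 18079 genes in that fit 12.4% passed the test, 2.74% as lower and 9.7% as higher in ablated eyes. At 4 dpi the same genes, 2 of 7 tested, were lower, against 3.71% of 16313 genes called, 1.88% lower and 1.83% higher. rpe65a passed the count filter through unablated libraries alone, so lower was the only direction its call could take. At 4 dpi rlbp1b also needed unablated libraries to pass. The shares called lower among the RPE genes and among all genes are therefore not like for like. At 2 dpi edgeR called 0 of 7, and 0% of 16048 genes. There, 4 of the 7 and 2691 of the 16048 genes had an unadjusted p under 0.05 in edgeR. DESeq2 called 1486 of the 16048 genes and 2 of the 7, rlbp1b and dhrs3b, and gave no adjusted p for 3 of the 7.

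**Figure D1:**
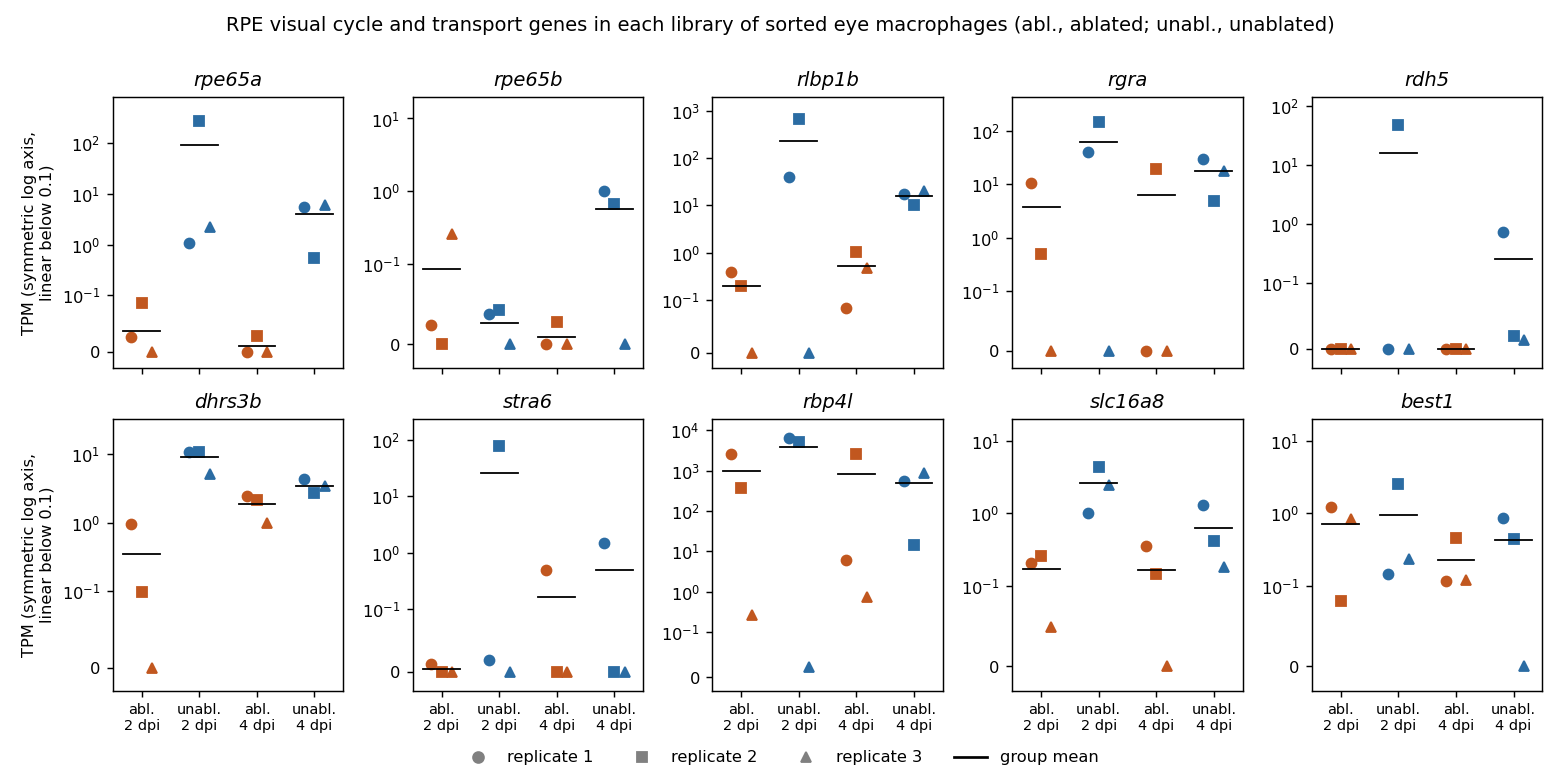
TPM (transcript levels scaled for gene length and depth) of the 10 genes in each library, on a symmetric log axis that is linear below 0.1; columns are ablated and unablated eyes at 2 and at 4 dpi, symbols are replicates and bars are group means. For rpe65a the 6 ablated libraries lie at or below 0.0857 TPM and the 6 unablated ones at or above 0.554 TPM, and unablated replicate 2 at 2 dpi is the highest library for 7 of the 10 genes.

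rpe65a encodes the retinoid isomerase of the RPE, the enzyme that makes 11-cis-retinol (ENSDARG00000007480, chromosome 2, 1428696 to 1443692, minus strand, GRCz11). At 2 dpi its level was 0.0251, 0.0857 and 0 TPM in ablated libraries, against 1.09, 279 and 2.25 TPM in unablated libraries. The 4 dpi values were 0, 0.0279 and 0 TPM in ablated libraries, against 5.56, 0.554 and 6.09 TPM in unablated libraries. The groups did not overlap at either time, and the ablated values rest on 1, 3, 0, 0, 1 and 0 counts. In the fit over both times rpe65a was lower in ablated eyes by a log2 fold change of -9.82 (SE 1.83, adjusted p = 0.00916, edgeR), with all 6 ablated libraries below all 6 unablated ones. The edgeR test gives no standard error. SE here and below is the size of the fold change divided by the square root of the test's F statistic, an approximation. The call held when any 1 of the 12 libraries was left out (edgeR adjusted p 0.00539 to 0.0400), and was lost by limma on log2(TPM + 1) (adjusted p = 0.0821).

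The size of the rpe65a difference depended on 1 library at 2 dpi. Summed counts were 4 in ablated and 6609 in unablated libraries, a depth-corrected ratio of 0.000453 with a 95% counting interval of 0.000123 to 0.00116. Without unablated replicate 2, which held 91.9% of all rpe65a counts, they were 4 and 127, a ratio of 0.0175 (0.00471 to 0.0460). At 4 dpi the sums were 1 and 439, a ratio of 0.00194 (4.9e-05 to 0.0109). Intervals of this kind cover counting error only, since amplified reads without molecular identifiers are not independent molecules. The separate fits gave -11.41 (SE 3.1, edgeR adjusted p = 0.155) at 2 dpi and -8.33 (SE 1.65, edgeR adjusted p = 0.0498) at 4 dpi. The call at 4 dpi was lost without any 1 of the 6 libraries, with adjusted p between 0.0529 without ablated replicate 2 and 0.178 without ablated replicate 3.

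The paralog rpe65b (ENSDARG00000094752, chromosome 8, 16688370 to 16697912, minus strand) did not follow rpe65a. It had 1, 0 and 12 counts in ablated and 1, 1 and 0 counts in unablated libraries at 2 dpi, and 0, 1 and 0 counts in ablated and 38, 16 and 0 counts in unablated libraries at 4 dpi. In TPM its highest levels were 0.255 in an ablated library (2 dpi, replicate 3) and 1.02 in an unablated one (4 dpi, replicate 1), so the groups overlapped. rpe65b did not pass the count filter in the separate fits of 2 and 4 dpi. Over both times the log2 fold change was -1.89 (SE 1.50, edgeR adjusted p = 0.439), and Pearson's r with rpe65a on log2(CPM + 1) over the 12 libraries was 0.04. The third paralog, rpe65c, had counts in 3 libraries, all of which also had rpe65b counts: 12 in ablated replicate 3 at 2 dpi, and 8 and 12 in unablated replicates 1 and 2 at 4 dpi. How reads shared by paralogs were counted is unknown.

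rlbp1b encodes a cellular retinaldehyde-binding protein, the carrier of 11-cis-retinoids in RPE and Müller glia (ENSDARG00000045808, chromosome 25, 19105804 to 19118127, plus strand). At 2 dpi it stood at 0.388, 0.196 and 0 TPM in ablated libraries, against 38.5, 654 and 0 TPM in unablated libraries. By 4 dpi levels were 0.0856, 1.03 and 0.481 TPM in ablated libraries, against 17.6, 10.3 and 20.2 TPM in unablated libraries. The groups were apart at 4 dpi and overlapped at 2 dpi, where replicate 3 of each condition had no count. At 4 dpi the unablated libraries were close together, and rlbp1b averaged 0.532 ± 0.474 TPM in ablated and 16.0 ± 5.15 TPM in unablated eyes (SD, n = 3 each). Its log2 fold change there was -4.91 (SE 0.87, edgeR adjusted p = 0.0394), and the ratio of summed counts, 69 to 1892, was 0.0310 (0.0240 to 0.0395).

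The call of rlbp1b at 4 dpi was kept without ablated replicate 2 (edgeR adjusted p = 0.0208) and lost without any other library, with adjusted p between 0.0760 without ablated replicate 1 and 0.167 without ablated replicate 3. Over both times the log2 fold change was -7.58 (SE 1.81, edgeR adjusted p = 0.0256). That call was lost in 8 of the 12 omissions (adjusted p 0.0510 to 0.0893), which were each ablated library, unablated replicate 2 at 2 dpi and unablated replicate 1 at 4 dpi. At 2 dpi the value was -10.32 (SE 3.62, edgeR adjusted p = 0.238). Summed counts there were 26 in ablated and 18828 in unablated libraries, a ratio of 0.00103, and 26 and 1158 without unablated replicate 2, a ratio of 0.0125.

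The paralog rlbp1a, counted below both as a Müller glia marker and as another visual cycle gene, spread differently over the libraries. It was found at 47.2, 1.89 and 0.0266 TPM in ablated and 210, 55.8 and 0 TPM in unablated libraries at 2 dpi. Levels of rlbp1a at 4 dpi were 0.061, 25.8 and 0.187 TPM in ablated and 29.4, 1.30 and 23.3 TPM in unablated libraries. Ablated libraries reached the levels of unablated ones at both times, and over both times the log2 fold change was -1.80 (SE 1.88, edgeR adjusted p = 0.557).

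rgra encodes an RGR opsin, in mammals a light-driven retinal isomerase of RPE and Müller glia (ENSDARG00000054890, chromosome 13, 29446226 to 29455859, minus strand). Its levels at 2 dpi were 10.8, 0.501 and 0 TPM in ablated libraries and 39.5, 146 and 0 TPM in unablated libraries. At 4 dpi they were 0, 19 and 0 TPM in ablated libraries and 30.4, 4.89 and 18.1 TPM in unablated libraries. Ablated replicate 2 at 4 dpi lay within the unablated range, so the groups overlapped at both times. The log2 fold changes were -4.13 (SE 2.89, edgeR adjusted p = 0.506) at 2 dpi, -1.53 (SE 2.31, adjusted p = 0.796) at 4 dpi and -2.81 (SE 1.98, adjusted p = 0.385) over both times. Without ablated replicate 2, the 4 dpi value was -11.56 and passed the test (edgeR adjusted p = 0.0241).

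Its paralog rgrb was lower in ablated eyes in the fit over both times, with a log2 fold change of -6.99 (SE 1.89, edgeR adjusted p = 0.0407). It had 0.110, 0.125 and 0 TPM in ablated and 2.54, 414 and 0 TPM in unablated libraries at 2 dpi, and 0.600, 0.366 and 0.0557 TPM in ablated and 7.25, 0.839 and 1.97 TPM in unablated libraries at 4 dpi. The groups were apart at 4 dpi and met at 0 in replicate 3 at 2 dpi. The call was lost in 10 of the 12 omissions, and without unablated replicate 2 of 2 dpi the value was -3.61 (edgeR adjusted p = 0.144).

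rdh5 encodes the dehydrogenase that oxidises 11-cis-retinol in the RPE (ENSDARG00000008306, chromosome 22, 10110358 to 10121880, minus strand). It had no count in any of the 6 ablated libraries. In unablated libraries it had 0, 2421 and 0 counts at 2 dpi and 59, 1 and 1 counts at 4 dpi, or 48.6 TPM in the highest library and 0.752 TPM in the next. Against a floor of 3 counts per ablated library, the summed counts were at least 359.5-fold lower in ablated eyes at 2 dpi and at least 7.96-fold lower at 4 dpi. Each bound rests on 1 library: without unablated replicate 2 there were 0 counts in both conditions at 2 dpi, and without unablated replicate 1 there were 0 and 2 counts at 4 dpi, which give no bound. With all libraries of a comparison in the fit, rdh5 did not pass the default count filter.

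dhrs3b encodes a short-chain dehydrogenase whose mammalian counterpart reduces all-trans-retinal (ENSDARG00000044803, chromosome 11, 28590733 to 28614608, minus strand). It was the most evenly detected of the 10 in unablated eyes. At 2 dpi it stood at 0.956, 0.0991 and 0 TPM in ablated libraries, against 10.8, 10.7 and 5.19 TPM in unablated libraries. The 4 dpi libraries had 2.45, 2.13 and 1.00 TPM in ablated libraries, against 4.37, 2.66 and 3.38 TPM in unablated libraries. All 6 ablated libraries lay below all 6 unablated ones, as for rpe65a, and no single unablated library carried the difference (the highest held 20.6% of its counts).

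Over both times dhrs3b had a log2 fold change of -2.80 (SE 0.89, edgeR adjusted p = 0.0662) and did not pass the test, whereas DESeq2 called it (adjusted p = 0.00175). It passed in edgeR without ablated replicate 1 (adjusted p = 0.0113) or ablated replicate 3 (adjusted p = 0.0417) of 2 dpi. The value was -4.77 (SE 1.74, edgeR adjusted p = 0.251) at 2 dpi and -0.87 (SE 0.66, adjusted p = 0.546) at 4 dpi. The ratios of summed counts were 0.0413 (0.0286 to 0.0577), from 36 and 653 counts, and 0.527 (0.436 to 0.635), from 185 and 299 counts. Its paralog dhrs3a had 1.31, 0 and 0 TPM in ablated and 13.3, 4.25 and 0 TPM in unablated libraries at 2 dpi. At 4 dpi dhrs3a had 0.774, 0.957 and 0.226 TPM in ablated and 6.59, 0.378 and 0.968 TPM in unablated libraries, so that the groups overlapped (both times -2.89, SE 1.62, edgeR adjusted p = 0.269).

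stra6 encodes the membrane receptor through which RPE cells take up retinol from its blood carrier (ENSDARG00000051874, chromosome 25, 22571475 to 22634675, plus strand). Nearly all of its RNA lay in 1 library. It had 1, 0 and 0 counts in ablated and 1, 3662 and 0 counts in unablated libraries at 2 dpi. At 4 dpi it had 39, 0 and 0 counts in ablated and 108, 0 and 0 counts in unablated libraries. The highest TPM were 78.6 in unablated replicate 2 at 2 dpi, 1.47 in unablated replicate 1 at 4 dpi and 0.484 in ablated replicate 1 at 4 dpi. It did not pass the count filter in the separate fits of 2 and 4 dpi. Over both times the log2 fold change was -6.83 (SE 2.66, edgeR adjusted p = 0.123).

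rbp4l encodes a retinol-binding protein that is known in fish as purpurin and is secreted by photoreceptors (ENSDARG00000044684, chromosome 21, 20338613 to 20342096, minus strand). It was by far the most abundant of the 10. At 2 dpi it stood at 2555, 374 and 0.271 TPM in ablated libraries, against 6403, 5042 and 0.0219 TPM in unablated libraries. For 4 dpi the levels were 6.10, 2516 and 0.734 TPM in ablated libraries, against 554, 14.3 and 874 TPM in unablated libraries. High and low libraries occurred in both conditions, and the groups overlapped at both times. The log2 fold changes were -2.09 (SE 3.12, edgeR adjusted p = 0.731) at 2 dpi, 0.77 (SE 2.57, adjusted p = 0.915) at 4 dpi and -0.64 (SE 2.15, adjusted p = 0.871) over both times. The sign at 4 dpi turned without ablated replicate 2 (-7.00, edgeR adjusted p = 0.0954) and by limma on log2(TPM + 1) (-2.64).

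slc16a8 encodes the lactate transporter of the RPE (ENSDARG00000045153, chromosome 12, 19191787 to 19198771, plus strand). At 2 dpi it stood at 0.204, 0.254 and 0.0482 TPM in ablated libraries, against 1.00, 4.34 and 2.43 TPM in unablated libraries. At 4 dpi it stood at 0.350, 0.144 and 0 TPM in ablated libraries, against 1.30, 0.410 and 0.182 TPM in unablated libraries. The groups were apart at 2 dpi and overlapped at 4 dpi. The ratio of summed counts at 2 dpi was 0.0618 (0.0397 to 0.0922), from 26 and 315 counts, and 0.0809 (0.0514 to 0.122) without unablated replicate 2. The log2 fold changes were -4.09 (SE 1.06, edgeR adjusted p = 0.141) at 2 dpi, -1.87 (SE 1.58, adjusted p = 0.597) at 4 dpi and -2.94 (SE 1.02, adjusted p = 0.0873) over both times. None passed in edgeR, while DESeq2 called slc16a8 over both times (adjusted p = 0.00580).

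best1 encodes bestrophin-1, a calcium-activated chloride channel of the basal RPE membrane (ENSDARG00000078331, chromosome 25, 3069671 to 3087556, minus strand). Its levels were low in both conditions. At 2 dpi it stood at 1.21, 0.0811 and 0.843 TPM in ablated libraries, against 0.147, 2.49 and 0.237 TPM in unablated libraries. At 4 dpi it stood at 0.118, 0.448 and 0.120 TPM in ablated libraries, against 0.855, 0.443 and 0 TPM in unablated libraries. On 2 of the 3 dates at 2 dpi the ablated library was the higher, and summed counts over both times were 122 in ablated and 120 in unablated libraries. The log2 fold change was -0.53 (SE 1.48, edgeR adjusted p = 0.861) at 2 dpi, -0.91 (SE 1.59, adjusted p = 0.826) at 4 dpi and -0.69 (SE 1.17, adjusted p = 0.730) over both times. Without unablated replicate 2 of 2 dpi it was 1.59 at 2 dpi and 0.43 over both times.

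**Figure D2:**
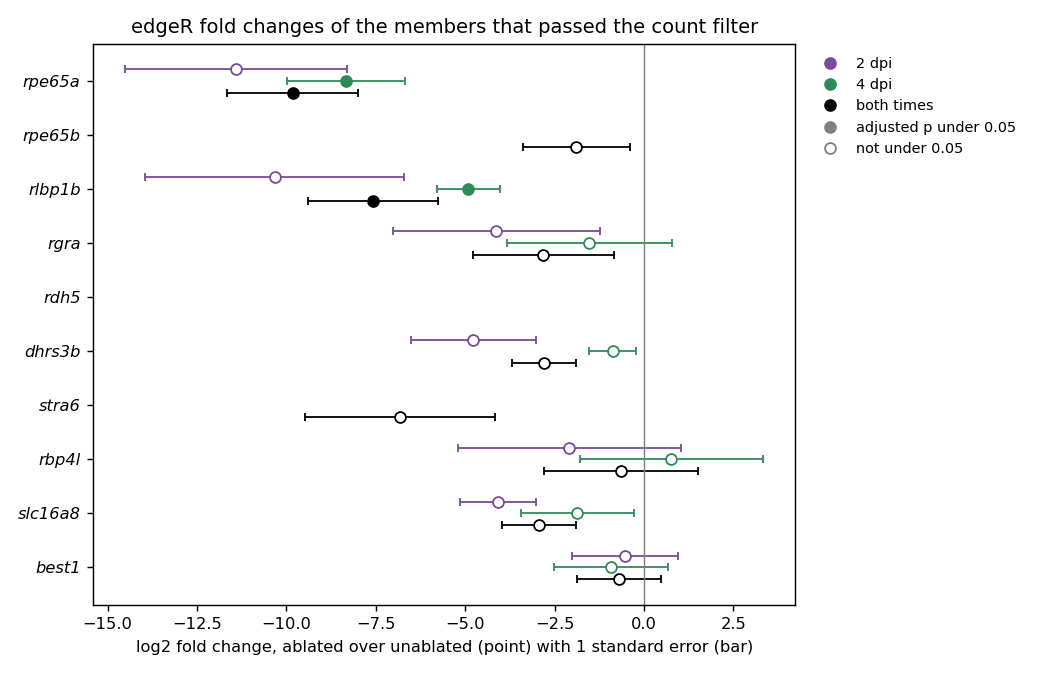
edgeR log2 fold changes, ablated over unablated, of the genes that passed the count filter. Bars are 1 standard error, approximated as the size of the fold change divided by the square root of the F statistic. Filled points have an adjusted p under 0.05. rpe65a (-9.82) and rlbp1b (-7.58) over both times and the same genes at 4 dpi (-8.33 and -4.91) are the filled points. Every other point is open. rdh5 did not pass the filter in any of these fits, and rpe65b and stra6 passed it only over both times.

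Counting all 10 genes, tested or not, every ablated library lay below every unablated one for 3 genes at 2 dpi (rpe65a, slc16a8 and dhrs3b), against 5.36% of the 23060 genes with a count. At 4 dpi this held for 4 (rpe65a, rlbp1b, dhrs3b and rdh5, the last by a margin of 1 count), against 11.5%. Over both times it held for 2, rpe65a and dhrs3b, against 0.685%. Genes apart at 2 dpi are bound to be lower in the ablated library on all 3 dates of 2 dpi. That direction therefore adds nothing for those 3 genes. No other of the 10 was lower on all 3 dates, and the share over all genes was 14.1%. For the tested genes the median log2 fold change was -4.13 at 2 dpi, -1.53 at 4 dpi and -2.81 over both times, with a median over all genes of -0.12, -0.04 and -0.12. A gene could pass the count filter through 1 condition alone, as rpe65a did through unablated libraries, so the filter shaped these medians. Left out at each time alone were rpe65b, rdh5 and stra6. At 2 dpi their summed counts in ablated and unablated libraries were 13 and 2, 0 and 2421, and 1 and 3663. Among photoreceptor, Müller glia and epithelial markers, the only positive median was that of photoreceptor markers at 4 dpi. For photoreceptor markers the median was -3.77 at 2 dpi (53 of 53 tested negative), 1.21 at 4 dpi (5 of 46) and -1.21 over both times (55 of 56). Of all genes tested 54.2%, 52.6% and 55.0% were negative. The 4 dpi photoreceptor sums were 581, 37383 and 494 CPM in ablated and 6438, 801 and 6928 CPM in unablated libraries. Only ablated replicate 2 was high among the ablated ones. For Müller glia markers it was -1.83 (16 of 18), -1.07 (14 of 18) and -1.49 (20 of 21), and for epithelial markers -2.0 (17 of 19), -2.71 (18 of 20) and -2.35 (19 of 20), in the same order. Their part in the medians of the RPE genes was not tested.

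Whether the ablation effect differed between the times was tested as an interaction, 4 dpi minus 2 dpi, over all 12 libraries. edgeR called 0 of the 9 genes tested and 0% of all genes, with 2 of the 9 and 1059 of all genes at an unadjusted p under 0.05, and DESeq2 called 80 genes and 0 of the 9. The smallest unadjusted p belonged to rpe65b (log2 difference -7.25, edgeR adjusted p = 0.837) and dhrs3b (3.85, edgeR adjusted p = 0.837). For rpe65a the difference was 3.01 (edgeR adjusted p = 0.969) and -2.78 without unablated replicate 2 of 2 dpi.

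Between the unablated groups alone, 4 dpi over 2 dpi, 0 of 9 genes were called by edgeR (1 at an unadjusted p under 0.05) and 0 by DESeq2, against 0.868% of all genes by edgeR. rpe65a had a log2 fold change of -4.70 (SE 1.90, edgeR adjusted p = 0.282), rlbp1b of -4.01 (SE 2.14, adjusted p = 0.423) and rpe65b of 4.13 (SE 2.24, adjusted p = 0.427). Without replicate 2 of 2 dpi the rpe65a value was 1.03. Time, larval age and title date cannot be told apart here.

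One library, unablated replicate 2 at 2 dpi, was the highest for 7 of the 10 genes. It held 84.9% of all rlbp1b counts, 97.5% of rdh5, 96.1% of stra6, 45.6% of rgra, 30.0% of slc16a8 and 25.2% of best1, beside the share of rpe65a given above. The highest library for dhrs3b and rbp4l was unablated replicate 1 at 2 dpi, and for rpe65b it was unablated replicate 1 at 4 dpi. Unablated replicate 3 at 2 dpi was of another make-up: it had 99, 197, 144 and 11 counts of rpe65a, dhrs3b, slc16a8 and best1, but 0 of rlbp1b, rgra, rdh5, stra6 and rpe65b. The ratio of rlbp1b to rpe65a in TPM was 35.5, 2.34 and 0 in the 3 unablated libraries at 2 dpi, and 3.16, 18.6 and 3.32 at 4 dpi. The genes did not come in 1 fixed proportion.

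**Figure D3:**
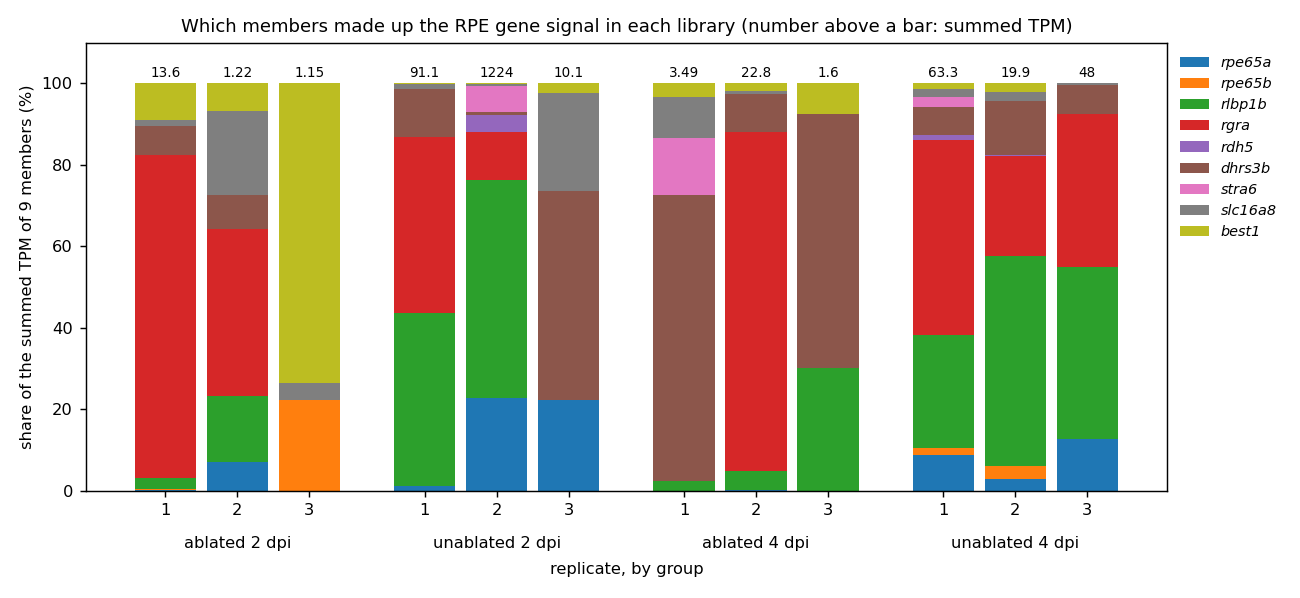
Share of each of 9 genes (without rbp4l) in their summed TPM in each library, in percent, with the summed TPM above each bar and groups in the order ablated then unablated at 2 and at 4 dpi. rlbp1b and rgra make up most of the sum in 5 of the 6 unablated libraries, dhrs3b in unablated replicate 3 at 2 dpi, and ablated libraries, with sums of 1.15 to 22.8 TPM, are led by rgra, dhrs3b or best1.

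By median TPM over the 6 unablated libraries, the order was rbp4l (714), rgra (24.3), rlbp1b (18.9), dhrs3b (4.78), rpe65a (3.91), slc16a8 (1.15), best1 (0.340), rpe65b (0.0400), rdh5 (0.0163) and stra6 (0.00964). The ranges of each neighbouring pair in that order overlapped. dhrs3b ranged from 2.66 to 10.8 TPM and slc16a8 from 0.182 to 4.34 TPM, both with counts in all 6 libraries, as had rpe65a and rbp4l.

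Markers of other retinal cells varied among the same libraries. The 58 photoreceptor markers found (of 61 listed) summed to 16107, 2413 and 750 CPM in ablated and 144017, 124730 and 943 CPM in unablated libraries at 2 dpi. At 4 dpi they summed to 581, 37383 and 494 CPM in ablated and 6438, 801 and 6928 CPM in unablated libraries. Between 2 and 23 of them were at 0 in an ablated library and between 1 and 35 in an unablated one; rho, the rod opsin, was at 0 in ablated replicate 1 at 4 dpi. edgeR called 0 photoreceptor markers of 53 tested at 2 dpi, 46 at 4 dpi and 56 over both times, with 3, 0 and 0 at an unadjusted p under 0.05, and DESeq2 called 3, 0 and 1.

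The 12 libraries share a kit and differ in depth and, in part, in title date. As a description over them, Pearson's r with the photoreceptor sum on a log2 scale was 0.91 for rbp4l, 0.90 for rgra and 0.68 for rlbp1b, and 0.52 for rpe65a. Spearman's rho was 0.90, 0.89, 0.67 and 0.60. rpe65a was at 1 count each in ablated replicate 1 at 2 dpi and ablated replicate 2 at 4 dpi, the ablated libraries with the most photoreceptor RNA. It was at 99 and 13 counts in unablated replicate 3 at 2 dpi and unablated replicate 2 at 4 dpi, the unablated libraries with the least. Its highest count, 6482, was in unablated replicate 2 at 2 dpi, where photoreceptor markers summed to 124730 CPM. The part of photoreceptor RNA in the rpe65a, rgra, rlbp1b and rbp4l values was not tested.

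**Figure D4:**
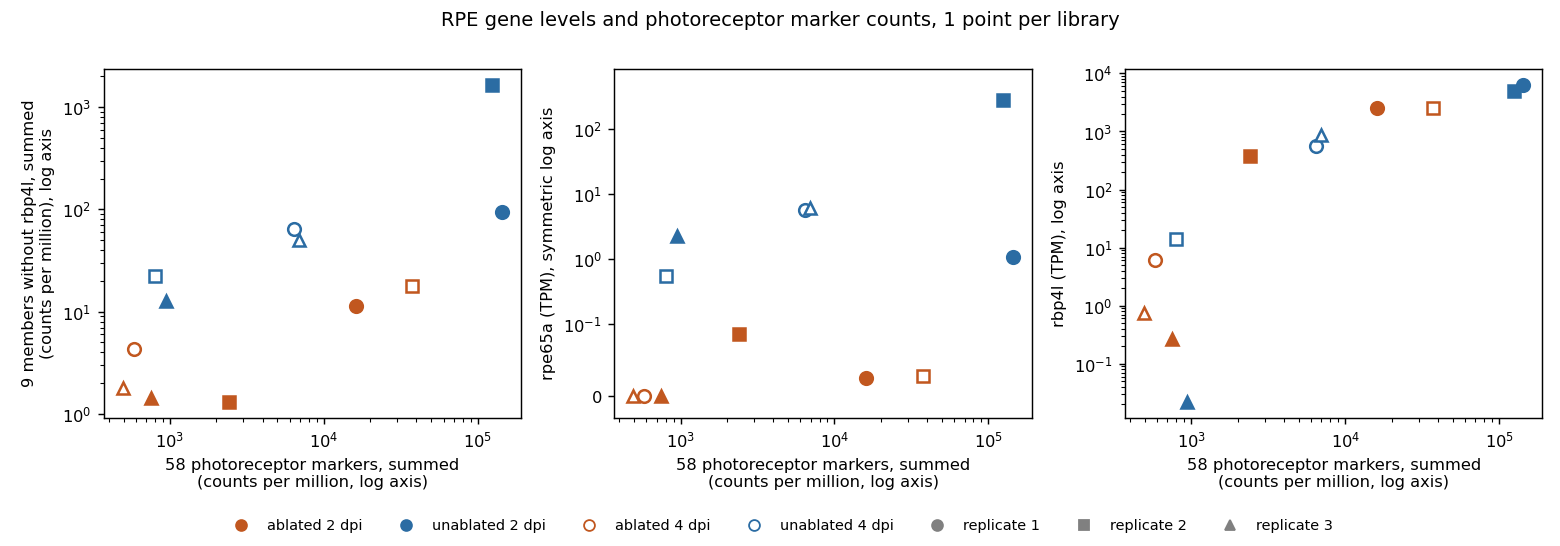
Summed CPM of 9 genes (left), rpe65a TPM (middle, symmetric log axis) and rbp4l TPM (right) against the summed CPM of 58 photoreceptor markers, 1 point per library. On a log2 scale the photoreceptor sum has an r of 0.91 with rbp4l and of 0.52 with rpe65a. The ablated libraries lie at or below 0.0857 TPM of rpe65a and at 494 to 37383 CPM of photoreceptor markers.

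The 24 Müller glia markers found (of 25) summed to 2387 to 6657 CPM in ablated libraries and 8063 to 11032 CPM in unablated ones, without overlap. Of that sum 62.1% was glula and 27.0% icn, while gfap, the defining intermediate filament of these cells, reached at most 2.17 CPM in ablated and 1.60 CPM in unablated libraries and was at 0 in 1 and 2 of them. Over both times 2 of 21 tested Müller markers were lower and 0 higher. The 21 epithelial markers summed to 784 to 2018 CPM in ablated and 441 to 6833 CPM in unablated libraries, with 2 of 20 tested lower over both times and 6 of 20 lower at 4 dpi. Of the 24 macrophage markers, 8 were higher and 0 lower over both times, and 4 were higher and 0 lower at 4 dpi. Among all genes 2.74% were lower and 9.7% higher over both times, and 1.88% were lower and 1.83% higher at 4 dpi. Over the 12 libraries dhrs3b had an r of 0.81 with the sum of the Müller list, most of it glula and icn, and rpe65b an r of 0.56 with the epithelial sum. Both sums were highest in unablated replicate 3 at 2 dpi, where 11 of the 24 Müller markers were at 0. Their part in the RPE gene values was not tested.

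The genes most like rpe65a over the 12 libraries, by Pearson's r of log2(CPM + 1) among 10158 genes, were mb (myoglobin, 0.96), rgrb (0.95), lratb.2 (0.92), fabp11b (0.92) and col9a2 (0.92). lratb.2 is a lecithin retinol acyltransferase gene, of the family that esterifies retinol. For stra6 they were lratb.2 (0.98), col9a2 (0.98), rgrb (0.97), selenou1b (0.96) and ccn2a (0.96). All of these 7 genes had their highest level in unablated replicate 2 at 2 dpi, at 24.0 CPM for col9a2 to 262 CPM for mb, and at most 1.42 CPM in any ablated library. In this likeness ranking CPM also carry edgeR's TMM scaling, which the summed CPM do not. The values without that library were not computed. Spearman's rho, which weighs ranks alone, with rpe65a was 0.89 for mb but 0.65 for rgrb, 0.59 for lratb.2, 0.57 for col9a2 and 0.47 for fabp11b, and with stra6 it was between 0.37 (selenou1b) and 0.71 (ccn2a).

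Ranked in the same way, the genes most like rbp4l were lrit1b (0.98), pde6ha (0.97), gnat2 (0.97), arr3a (0.97) and prph2b (0.97), with rho between 0.90 and 0.98. pde6ha, gnat2 and arr3a are cone phototransduction genes, and prph2b encodes a disc-rim protein; these 4 are on the photoreceptor list. Among the 10 genes themselves, rdh5 and stra6 were the closest pair by r (r = 0.99, rho = 0.42). Unablated replicate 2 at 2 dpi held 97.5% of rdh5 and 96.1% of stra6 counts. By rho the closest pair was rgra and rbp4l (rho = 0.90, r = 0.86), and rpe65a and rbp4l had an r of 0.39 (rho = 0.44).

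Other visual cycle and retinoid genes were mixed in direction. Of 44 found (of 50 listed) 36 were tested over both times. Of these 3 rose and 1, rgrb, fell in ablated eyes, against 9.7% higher and 2.74% lower among all genes. The median log2 fold change was -0.92 against -0.12 over all genes, with 25 of 36 negative against 55.0% of all genes. In the separate fits the median was -1.53 at 2 dpi (23 of 30 negative) and 0.081 at 4 dpi (14 of 30). dhrs9, a retinol dehydrogenase gene, averaged 290 ± 93.0 TPM in ablated and 42.0 ± 19.3 TPM in unablated eyes at 2 dpi, and 368 ± 27.9 TPM in ablated and 113 ± 29.3 TPM in unablated eyes at 4 dpi (SD, n = 3 each). Its groups did not overlap, and its log2 fold change over both times was 2.22 (SE 0.26, edgeR adjusted p = 0.000879). rdh12l, another retinol dehydrogenase gene, and retsat, which encodes a retinol saturase, also rose over both times (log2 fold changes of 1.70, SE 0.31, edgeR adjusted p = 0.00664, and 0.80, SE 0.17, adjusted p = 0.0153). These 3 calls held in all 12 omissions of a library. At 4 dpi only dhrs9 of 30 tested passed (1.73, edgeR adjusted p = 0.0207), a call that was lost without ablated replicate 1 (0.0760), ablated replicate 3 (0.0976), unablated replicate 1 (0.0893) or unablated replicate 2 (0.0526). At 2 dpi edgeR called 0 of 30, with 3 at an unadjusted p under 0.05 (dhrs9, rdh12l and retsat), and DESeq2 called 3.

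Of 32 other RPE transport and identity genes found (of 39), 26 were tested over both times and edgeR called 0, with 5 at an unadjusted p under 0.05, while DESeq2 called 1. At 4 dpi 1 of 23 fell, cdh1, an epithelial cadherin gene that is also on the epithelial list (log2 fold change -1.96, edgeR adjusted p = 0.0337), at 19.5 ± 8.95 TPM in ablated and 76.6 ± 4.04 TPM in unablated eyes (SD, n = 3 each). That call was kept without ablated replicate 2 (edgeR adjusted p = 0.0102) and lost without any other of the 6 libraries (0.0760 to 0.138). At 2 dpi the smallest adjusted p of 23 in edgeR were those of tfec, a transcription factor gene (0.152), and atp1a1a.1, a sodium pump gene (0.208). Neither passed, and both were higher in ablated eyes there. tfec averaged 70.3 TPM in ablated and 34.5 TPM in unablated eyes, and atp1a1a.1 averaged 408 and 199 TPM. Both were present in every library, tfec at 30.0 to 100 TPM and atp1a1a.1 at 133 to 520 TPM.

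Of 14 melanin synthesis and melanosome genes found (of 18), 8 were tested over both times, with 1 lower and 2 higher, against 2.74% and 9.7% of all genes. tyrp1b, a melanin synthesis enzyme gene, had 1.07, 0.526 and 0.0211 TPM in ablated and 1.99, 739 and 0 TPM in unablated libraries at 2 dpi, and 0, 0 and 0.222 TPM in ablated and 4.54, 10.3 and 2.06 TPM in unablated libraries at 4 dpi. It peaked in the same unablated library as rpe65a, and its log2 fold change over both times was -7.50 (SE 2.13, edgeR adjusted p = 0.0486), or -3.54 (adjusted p = 0.186) without that library, the call being lost in 10 of the 12 omissions. mitfa, a pigment cell transcription factor gene, and rab32a, which encodes a GTPase of melanosome and lysosome traffic, rose (log2 fold changes of 1.57, edgeR adjusted p = 0.0191, and 0.78, adjusted p = 0.0107). The mitfa call was lost without ablated replicate 2 of 2 dpi (edgeR adjusted p = 0.0582). Both were present in every library, mitfa at 1.93 TPM or more and rab32a at 20.9 TPM or more.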

How the data were processed

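Per the file headers, the deposited tables hold gene counts and, normalised by the authors, TPM, in 24 value columns that were all used. Per the labels' protocols, cells were sorted into a low-input full-length kit (SMART-Seq HT with Nextera XT); per the submitters' processing notes the assembly is GRCz11. The aligner, the counter and the gene annotation are not given in the sources that were used. Strand is not marked by the kit, and overlapping genes on opposite strands cannot be told apart. No promoter, transcript or protein sequence was used here.

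The 10 genes and the gene lists were chosen from general knowledge with earlier results of these data known. TPM were used for levels and counts for tests: edgeR 4.0.16 quasi-likelihood with TMM scaling and its default filter in R 4.3.3, Benjamini-Hochberg adjustment over all genes tested and a threshold of 0.05. The 6 libraries of each time were fitted alone; the mean over both times, the interaction and the unablated groups used all 12. From the lists of other visual cycle, other RPE and melanin genes, those called at 2 dpi, 4 dpi or over both times were named. At 2 dpi, where none was called, the genes of smallest p were named for the first 2 of these lists. Paralogs of the 10 were always named. The photoreceptor, Müller glia, epithelial and macrophage lists were reported by sums and counts of calls. Likeness was ranked among genes that passed the filter of the 12-library fit and reached 10 CPM in some library. The 10 genes and genes with placeholder symbols were left out of that ranking. Gene values in correlations were CPM with TMM scaling, while list sums were scaled for depth alone. Count ratios have exact 95% intervals, conditional on the total, and bounds use a floor of 3 counts. Alternatives were DESeq2 1.42.0, limma 3.58.1 on log2(TPM + 1) or log2(TPM + 0.1) (a TPM of at least 1 in 3 libraries), DESeq2's size factors, no filter, a strict filter (1 CPM in 3 libraries and a mean of 50 counts), a replicate block, all 12 libraries in each fit and omission of each library.

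At 2 dpi a title date is shared by same-numbered libraries, which were compared date by date. The main tests used group means only and had no term for this pairing, which only the replicate block added. After removal of group means these pairs correlated at r = 0.636, 0.0163 and 0.621 (other pairs -0.651 to 0.213). At 4 dpi the r were -0.221, -0.463 and -0.120, and the numbers were not taken to pair libraries. The replicate block nevertheless joined libraries by number at 4 dpi too.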

Additional observations from a re-analysis of the deposited data

How the results depend on the processing

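Of the 10 genes, 0 were called at 2 dpi in the main setting and in every omission, 2 by DESeq2, 1 by limma on log2(TPM + 1), 1 on log2(TPM + 0.1) and 1 with all 12 libraries in the fit. At 4 dpi the count of 2 became 1 with no filter, 1 with the strict filter, 1 by either limma setting, 0 under the replicate block, 0 with all 12 libraries and 0 to 2 over the omissions. Over both times the count of 2 became 3 by DESeq2 and 3 by either limma setting, and was 1 to 2 over the omissions. There dhrs3b was called in 5 of 19 alternatives and slc16a8 in 3 of 18. Among all genes, the 0 at 2 dpi became 1486 by DESeq2, 852 by limma on log2(TPM + 1), 756 on log2(TPM + 0.1) and 1142 with all 12 libraries, and stayed 0 in the omissions. The 605 at 4 dpi became 2317 by DESeq2, 1672 and 1360 by the 2 limma settings, 0 under the replicate block, 222 with all 12 libraries and 0 to 1420 over the omissions. The 2248 over both times became 3915 by DESeq2, 3428 by limma on log2(TPM + 1) and 1160 to 2513 over the omissions. The interaction called 3 genes with DESeq2's size factors, 5 with no filter, 80 by DESeq2 and 0 to 19 over the omissions. The contrast of unablated groups called 281 with those size factors, 260 with the strict filter, 1408 by DESeq2, 765 and 739 by limma, 0 under the replicate block and 14 to 493 over the omissions. Its split was 47 higher and 110 lower in the main setting, 38 and 243 with those size factors, and 377 and 1031 by DESeq2. By limma the split turned, to 536 higher and 229 lower on log2(TPM + 1) and 493 and 246 on log2(TPM + 0.1). DESeq2's size factors also moved the median log2 fold change of all genes. It became -0.28 (main -0.12) at 2 dpi, 0.19 (main -0.015) in the interaction and -0.20 (main -0.077) between the unablated groups.

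Signs turned for genes without a call. best1 had a log2 fold change of 0.59 under the replicate block at 2 dpi, 0.032 at 4 dpi and 0.35 over both times, and over the omissions -1.17 to 1.59 at 2 dpi (positive without ablated or unablated replicate 2) and -1.10 to 0.43 over both times (positive without unablated 2 dpi replicate 2). rbp4l at 4 dpi was -3.02 and -2.64 by limma on log2(TPM + 0.1) and log2(TPM + 1), -6.01 under the block and -7.00 (without ablated replicate 2) to 1.62 over the omissions. The rpe65a interaction was -2.78 (without unablated 2 dpi replicate 2) to 4.30 over the omissions, and rpe65a between the unablated groups was 1.36 under the block and -5.28 to 1.03 (without that library) over the omissions, while rlbp1b there was 0.19 by limma on log2(TPM + 0.1). The causes were not tested. No adjusted p was given by DESeq2 for rpe65a at 2 dpi and over both times. rdh5 was tested with no filter, and over both times, in the interaction and between the unablated groups also in most omissions, and was called in none of these. Counts of 0 to 3 in most ablated libraries limit fold changes of rpe65a, rdh5, stra6 and rpe65b to counting bounds.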
